A study of Homo sapiens with 32 samples.

Results

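The 30 genes described here make or control cholesterol and fatty acids in the cell. They were taken as a fixed list of enzymes and regulators of the SREBP pathway, and were found by gene name in the count tables, where they are 30 of 62703 gene identifiers. The rule uses no measured value, though the list was chosen with earlier results of these data known. They comprise 18 enzymes of the sterol pathway, 7 enzymes of fatty acid synthesis, elongation and desaturation, and 5 regulators and sterol carriers. All 30 passed the filter on low counts in every fit, with 30 to 31344 counts per gene and library.

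The RNA came from HEK293T, an established line of human embryonic kidney cells, kept in a high-glucose medium for which the labels name no serum. In each knockout, plasmids that do not integrate brought in 3 guide RNAs against IGF2BP1, IGF2BP2 or IGF2BP3 together with GFP, and each knockout (KO) was a single clone grown from 1 sorted cell. The control carried a guide without a target in mammalian genes and was made alongside; whether it was a clone or a pool is not stated, and no further treatment was given to any group. Poly(A) RNA was sequenced from whole cells (total RNA) and from nuclear and cytoplasmic fractions, with 4 control libraries and 2 libraries of each knockout per RNA kind, except for 4 cytoplasmic libraries of the IGF2BP3 knockout. The libraries of a knockout repeat 1 clone, so p-values measure the spread between libraries, and the edited gene cannot be told apart from other differences of that clone.

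Sterol synthesis is governed by a feedback loop at the membrane of the endoplasmic reticulum. The transcription factors SREBP1 and SREBP2, products of SREBF1 and SREBF2, are held there as precursors bound to SCAP. When sterol is scarce, SCAP carries them to the Golgi, where proteases release the part that enters the nucleus; when sterol is plentiful, INSIG1 and INSIG2 hold SCAP back. SREBP2 mainly drives the genes of cholesterol synthesis and uptake, SREBP1 those of fatty acid synthesis, and both commonly act on promoters beside the factors NF-Y and Sp1. The IGF2BP proteins bind mRNAs, are abundant in fetal tissue and many tumours, and are best known for prolonging the life of the mRNAs they bind.

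The promoters of 5 members described in detail further on, and of SREBF2, the member with the strict sterol element, are shown because they let a reader see the NF-Y and Sp1 letters that most of the members share. They are the 160 bases just before the annotated start, from RefSeq on GRCh38.p14, in the direction of the gene. Capitals mark CCAAT or its reverse ATTGG (the NF-Y element), GGGCGG or its reverse CCGCCC (the Sp1 element), and TCACNCCAC on either strand (a sterol regulatory element).
INSIG1 (chr7:155297718-155297877, plus strand): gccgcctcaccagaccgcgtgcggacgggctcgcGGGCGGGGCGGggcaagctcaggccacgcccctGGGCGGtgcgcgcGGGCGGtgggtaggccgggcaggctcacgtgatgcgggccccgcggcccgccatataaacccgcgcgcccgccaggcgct
TM7SF2 (chr11:65111712-65111871, plus strand): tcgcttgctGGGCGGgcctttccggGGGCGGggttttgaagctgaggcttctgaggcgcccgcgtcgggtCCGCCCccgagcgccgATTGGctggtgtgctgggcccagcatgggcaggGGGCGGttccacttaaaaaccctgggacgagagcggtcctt
LSS (chr21:46228775-46228934, minus strand): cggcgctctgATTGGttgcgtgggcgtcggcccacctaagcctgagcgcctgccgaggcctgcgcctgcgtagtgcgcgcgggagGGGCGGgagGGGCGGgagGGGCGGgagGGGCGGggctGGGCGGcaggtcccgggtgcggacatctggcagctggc
MSMO1 (chr4:165327509-165327668, plus strand): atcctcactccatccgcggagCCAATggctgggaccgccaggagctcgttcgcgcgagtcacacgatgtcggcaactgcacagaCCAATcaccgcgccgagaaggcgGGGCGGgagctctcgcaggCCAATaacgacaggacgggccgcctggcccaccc
SCD (chr10:100347073-100347232, plus strand): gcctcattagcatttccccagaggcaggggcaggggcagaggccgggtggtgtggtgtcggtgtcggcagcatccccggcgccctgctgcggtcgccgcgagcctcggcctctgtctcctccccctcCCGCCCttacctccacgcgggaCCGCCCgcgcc
SREBF2 (chr22:41832945-41833104, plus strand): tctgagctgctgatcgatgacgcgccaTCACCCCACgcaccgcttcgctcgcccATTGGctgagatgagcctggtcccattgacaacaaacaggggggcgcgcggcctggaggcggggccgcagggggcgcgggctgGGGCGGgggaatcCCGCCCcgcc
MSMO1 holds 3 copies of the NF-Y letters and 1 of the Sp1 letters in this stretch, LSS holds 1 and 5, TM7SF2 1 and 4, INSIG1 0 and 4, SREBF2 1 and 2, and SCD 0 and 2. Of the 26 members with a RefSeq promoter of 250 bases before to 50 bases after the start, 20 (76.9%) held the NF-Y letters on either strand, against 39.7% of all 27305 promoters of this length and 42.8% of those of genes tested here. The Sp1 letters were in 25 of 26 (96.2%), against 48.3% and 75.9%. SREBF2 was the 1 member of 26 with the strict sterol element, which 1.39% of all promoters held; for the others these letters are not in this window. FASN, ACAT2, SQLE and FDFT1 were not matched. A match is a description of the letters and not a measured site.

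Levels per length spanned a wide range in the control cells. On the scale of normalized CPM per kilobase of exon in cytoplasmic RNA, SCD, the desaturase that makes oleate from stearate, was highest at 188 ± 12 (SD, n = 4), followed by ACLY, which makes cytosolic acetyl-CoA from citrate, at 165 ± 12.4 and FASN, the fatty acid synthase, at 86.8 ± 21.8. SCD and ACLY differed by less than the sum of their SDs. The squalene epoxidase SQLE, at 52.8 ± 6.74, was highest among the sterol enzymes, with FDPS, the farnesyl diphosphate synthase, next at 43.0 ± 1.71. The lowest were STARD4 at 3.65 ± 0.183, HSD17B7 at 2.86 ± 0.298 and CYP51A1 at 2.37 ± 0.563. Normalized CPM are CPM of the TMM-scaled library size, scaled within each RNA kind. Exons of FADS1 and FADS2 overlap on opposite strands, and 15 of the 30 members overlap exons of another gene in GENCODE 29. Whether counting used strand is not given in the sources used here. Some overlaps are on the same strand, where strand does not tell genes apart: TM7SF2 with VPS51, FADS2 with FEN1, FADS1 with MIR1908, and CYP51A1 with AC000120.2 and AC000120.3. Their part in the counts was not tested.

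The libraries held 13689067 to 26119480 counts. Each targeted RNA was lowest in its own knockout: IGF2BP1 at 22.1 to 28.1 normalized CPM against 314 to 501 in the controls, IGF2BP2 at 22.3 to 36.0 against 58.6 to 111, and IGF2BP3 at 25.1 to 41.0 against 68.4 to 92.4. The other family RNAs moved too. Cytoplasmic IGF2BP1 was at 231 to 236 in the IGF2BP2 and 229 to 291 in the IGF2BP3 knockout, against 358 to 435 in the controls. Cytoplasmic IGF2BP3 was at 46.9 to 47.6 in the IGF2BP2 and 87.6 to 90.3 in the IGF2BP1 knockout, against 68.4 to 74.9. Cytoplasmic IGF2BP2 was at 69.1 to 74.2 in the IGF2BP3 and 89.8 to 90.6 in the IGF2BP1 knockout, against 84.3 to 89.4. One library of the IGF2BP1 knockout appears as both total replicate 2 and nuclear replicate 1, with no difference in any of 62703 identifiers and 21232940 counts in each. Calls lost without it are named with the IGF2BP1 counts. The same library also enters the spread estimate shared by all genotypes in total and nuclear RNA, so it bears on every knockout's p-values. It is part of the nuclear to cytoplasmic ratio fit as well. Mitochondrial RNA made up 2.28% of its counts, 3.02% of the other total and 2.49% of the other nuclear library of that knockout. Controls had 3.02% to 3.78% in total and 2.02% to 2.42% in nuclear RNA. Which RNA kind the library belongs to is not known. Of the 9 HEK293 and embryonic kidney markers PAX8 was near 0 (at most 0.11), while VIM and SALL1 were expressed in every library. In cytoplasmic RNA EYA1, NEFM and LHX1 ranged from 3.82 to 27.8, 32.1 to 278 and 1.69 to 6.96 normalized CPM. The 9 together were at 1083 to 1130 in total RNA of the controls. They were at 758 to 826 in the IGF2BP1, 887 to 931 in the IGF2BP2 and 518 to 528 in the IGF2BP3 knockout. Of markers of other cell types, CD3E, PTPRC, HBA1, PECAM1, CDH5, DCN, ADIPOQ and TTR stayed below 0.5 normalized CPM, while COL1A1 was at 16.2 to 63.9. CD14, PLIN1, ALB and APOA1 reached at most 1.77, 1.94, 0.62 and 1.16. The labels give 5 batches. Controls were in batches 1 to 4, joined by the IGF2BP1 knockout in the first pair of batches and by the other knockouts in batches 3 and 4. A further 2 cytoplasmic IGF2BP3 libraries were in batch 5, which had no control.

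Batches moved these genes within 1 genotype. The controls of batches 3 and 4 were lower than those of batches 1 and 2 for 25 of 30 members in each RNA kind, with a median log2 difference of -0.29 in total, -0.24 in nuclear and -0.17 in cytoplasmic RNA. In the cytoplasmic IGF2BP3 knockout, 23 of 30 members were higher in batch 5 than in batches 3 and 4, with a median of 0.31 and a range of -0.55 to 0.92. SQLE, HMGCS1 and MSMO1 were at the top of that range and SREBF1 and TM7SF2 at its bottom. Differences between batches were not counted over all genes, so they are not read as particular to the members. All fold changes below compare a knockout with the controls of its own batches. In such bulk RNA, fewer cells with a transcript and less of it per cell cannot be told apart.

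**Figure D1:**
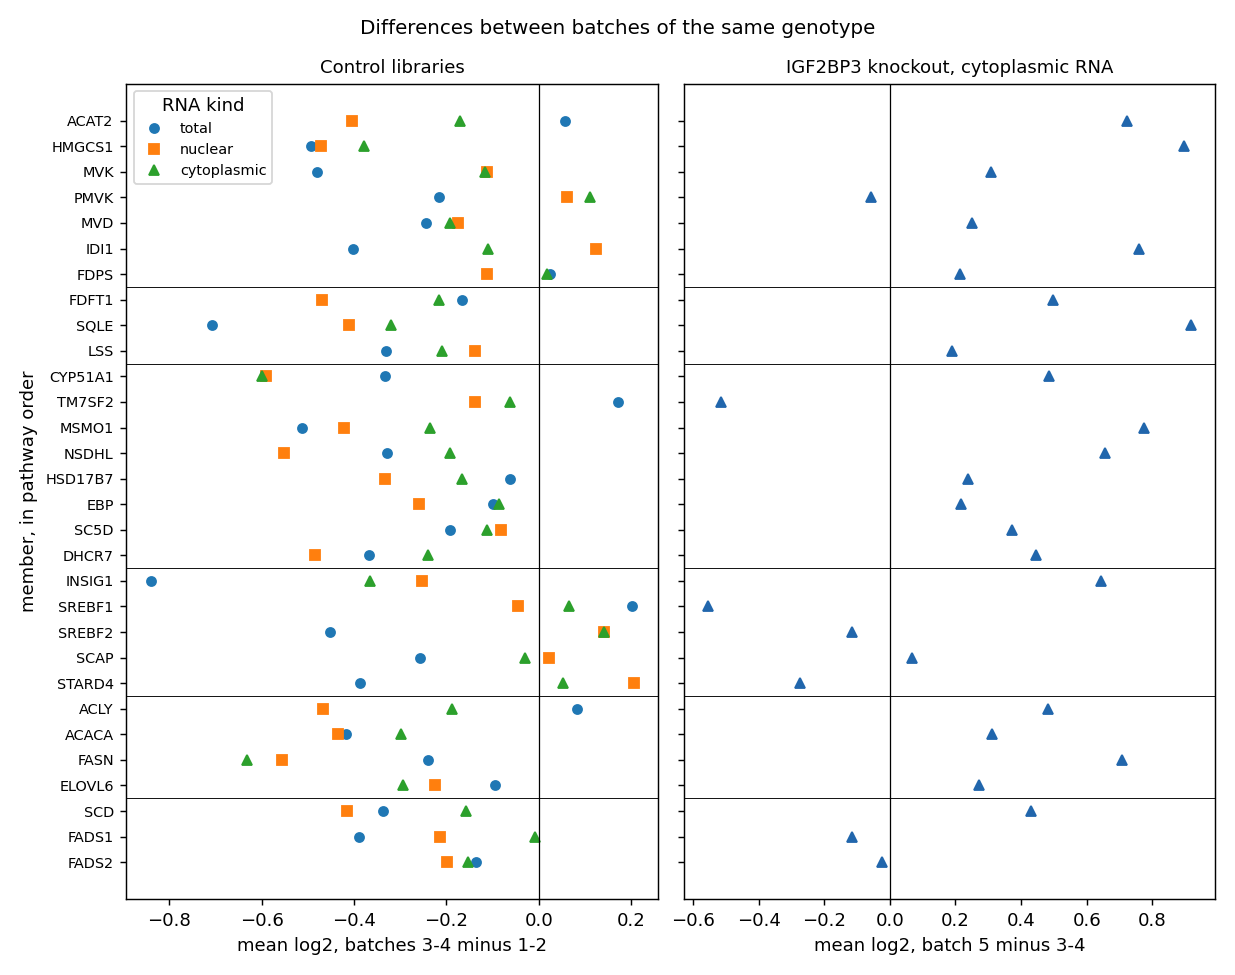
Mean log2 difference of normalized CPM between batches of the same genotype, for each of the 30 members in pathway order: left, control libraries of batches 3 and 4 minus batches 1 and 2 in the 3 RNA kinds; right, cytoplasmic IGF2BP3 knockout, batch 5 minus batches 3 and 4. Most points are left of 0 in the controls (25 of 30 in each RNA kind) and right of 0 in batch 5 (23 of 30).

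The 3 knockouts moved the list in different ways. A member was called where edgeR's quasi-likelihood test gave a Benjamini-Hochberg adjusted p under 0.05 over all genes tested. In the IGF2BP1 knockout 17 members rose and 6 fell in total RNA, where 10.7% of all genes tested were called higher and 13.5% lower. In nuclear RNA 23 rose and 5 fell (all genes: 12.7% and 13%), and in cytoplasmic RNA 21 rose and 6 fell (all genes: 22.5% and 21.9%). The median log2 fold change of the members was 0.40, 0.40 and 0.32 in these 3 kinds, beside medians of 0.0045, 0.0045 and 0.011 over all genes. Without the library that appears in both kinds, 16 members were called higher and 5 lower in total RNA and 21 and 4 in nuclear RNA, and all 23 and all 28 original calls kept their sign. The calls lost were EBP (now 0.24, adjusted p = 0.1) and SCD in total RNA, and LSS (0.27, adjusted p = 0.081), STARD4 (0.21, adjusted p = 0.27) and ELOVL6 (-0.23, adjusted p = 0.17) in nuclear RNA. Of calls that held, ACAT2 and HSD17B7 moved to 0.32 and 0.42 in total RNA and NSDHL to 0.54 in nuclear RNA.

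The IGF2BP2 knockout went the other way. In total RNA 1 member rose and 19 fell (all genes: 23.3% higher and 23.7% lower), in nuclear RNA 1 rose and 16 fell (all genes: 24.8% and 24.9%), and in cytoplasmic RNA 3 rose and 22 fell (all genes: 30.9% and 33.2%). Members had median log2 changes of -0.50, -0.36 and -0.47, beside 0.02, 0.0067 and 0.013 over all genes. The list split in the IGF2BP3 knockout. In its total RNA 7 rose and 13 fell (all genes: 23.5% and 23.4%). In nuclear RNA 10 rose and 10 fell (all genes: 25.1% and 25.3%), and 9 rose and 19 fell in cytoplasmic RNA (all genes: 31.5% and 33.2%). The medians were -0.20, 0.031 and -0.22, beside 0.018, 0.0076 and 0.025 over all genes. Cytoplasmic fold changes of the IGF2BP3 knockout rest on batches 3 and 4, since batch 5 had no control. Among members called lower there, ACAT2, HMGCS1 and MSMO1 had batch 5 means of 159.3, 105.5 and 49.35 normalized CPM. These were above the highest controls, at 125.4, 83.25 and 39.48. The same held for IDI1, NSDHL and FDFT1, with batch 5 means of 133.3, 77.77 and 147.0 and highest controls at 96.36, 67.48 and 145.1. The other 13 called lower, SQLE, FASN and SCD among them, stayed below every control. The IGF2BP2 and IGF2BP3 comparisons share their control libraries. The 6 markers of cytoplasmic RNA looked at (GAPDH, EEF1A1, ACTB, RPLP0, RPL13A and TUBA1B) were also mostly lower in total and cytoplasmic RNA of these knockouts. In the IGF2BP2 knockout 5, 2 and 5 of them fell in total, nuclear and cytoplasmic RNA, with medians of -0.49, -0.031 and -0.56, and 1 rose in nuclear RNA. Of the same markers 6, 2 and 6 fell in the IGF2BP3 knockout, with medians of -0.65, -0.20 and -0.52. For the IGF2BP1 knockout 1, 0 and 4 fell, with medians of -0.085, 0.13 and -0.12, and their part in the members' changes was not tested. The IGF2BP3 counts leaned on single libraries, with 12 members called in total RNA without IGF2BP3 replicate 1 and 13 without control replicate 3 or 4, and 12 in nuclear RNA without IGF2BP3 replicate 2 or control replicate 4.

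**Figure D2:**
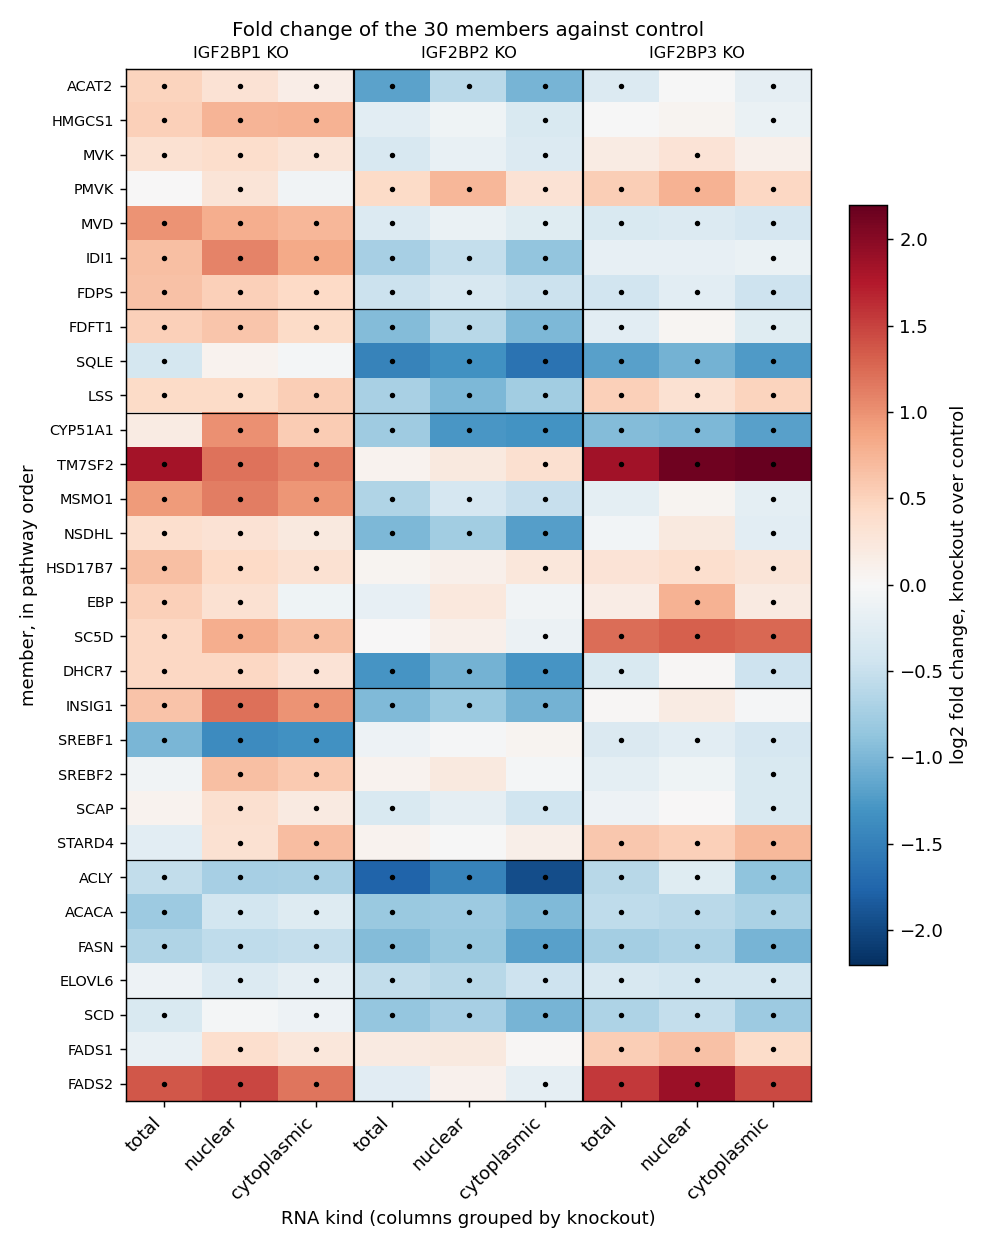
Log2 fold change of each of the 30 members (rows, in pathway order, lines part the role groups) in total, nuclear and cytoplasmic RNA of each knockout (columns). Red is higher and blue lower than control, and a dot marks an adjusted p under 0.05; the IGF2BP1 columns are mostly red in the sterol rows, the IGF2BP2 columns mostly blue, and ACLY, ACACA and FASN are blue in all 9 columns.

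Scaling mattered for the IGF2BP2 and IGF2BP3 splits. With upper quartile normalization the median of all genes moved up by 0.10 and 0.13 in total RNA and by 0.15 and 0.17 in cytoplasmic RNA of the IGF2BP2 and IGF2BP3 knockouts. The calls over all genes in cytoplasmic RNA then went from 5635 higher and 6051 lower to 7325 higher and 4569 lower in the IGF2BP2 knockout, and from 5730 higher and 6051 lower to 7705 higher and 4227 lower in the IGF2BP3 knockout. In total RNA they went from 4371 higher and 4439 lower to 5267 higher and 3438 lower (IGF2BP2) and from 4403 higher and 4392 lower to 5659 higher and 3115 lower (IGF2BP3). In the IGF2BP1 knockout they went from 1999 higher and 2529 lower to 2539 higher and 2055 lower. The members then counted 2 higher and 17 lower in total, 5 and 16 in nuclear, and 7 and 18 in cytoplasmic RNA of the IGF2BP2 knockout, against 9 and 7, 12 and 6, and 11 and 13 in the IGF2BP3 knockout. The IGF2BP1 member counts were the same under both scalings in all 3 kinds. Across kinds, 16 members were called higher and 4 lower in each of the 3 kinds of the IGF2BP1 knockout, 1 and 16 of the IGF2BP2 knockout, and 7 and 10 of the IGF2BP3 knockout. Calls alike across kinds or knockouts were not counted over all genes, so these counts are not read as particular to the members. The 9 members called higher in each kind of the IGF2BP1 knockout and lower in each kind of the IGF2BP2 knockout were ACAT2, DHCR7, FDFT1, FDPS, IDI1, INSIG1, LSS, MSMO1 and NSDHL. Among these 9, DHCR7, FDFT1, IDI1 and INSIG1 kept all 6 calls when any 1 library was left out. ACAT2 (nuclear and cytoplasmic), LSS (nuclear) and NSDHL (each kind) lost an IGF2BP1 call, and FDPS (total and nuclear) and MSMO1 (nuclear) an IGF2BP2 call. With only batches 1 and 2 in the fit, the total RNA calls of DHCR7 and LSS in the IGF2BP1 knockout were also lost (adjusted p = 0.051 and 0.075). ACACA, ACLY and FASN were lower in each knockout and each kind.

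The early steps from acetyl-CoA to farnesyl diphosphate held 7 members. ACAT2 joins acetyl-CoA units, HMGCS1 makes HMG-CoA, MVK and PMVK phosphorylate mevalonate, MVD decarboxylates it, IDI1 isomerizes the resulting isoprenoid unit and FDPS joins these units. In the IGF2BP1 knockout 6, 7 and 6 of the 7 rose in total, nuclear and cytoplasmic RNA and none fell. Of all genes 10.7%, 12.7% and 22.5% were called higher there. In the IGF2BP2 knockout 5, 3 and 6 fell (all genes: 23.7%, 24.9% and 33.2% lower) and PMVK rose in each kind. In the IGF2BP3 knockout 3, 2 and 5 fell (all genes: 23.4%, 25.3% and 33.2% lower), PMVK rose in each kind and MVK rose in nuclear RNA. Leaving out 1 library ended calls of MVK in each kind, ACAT2 in nuclear and cytoplasmic RNA and PMVK in nuclear RNA of the IGF2BP1 knockout. In IGF2BP2-KO it ended those of FDPS, MVD and MVK in total RNA and of FDPS in nuclear RNA. In IGF2BP3-KO it ended ACAT2, FDPS and MVD in total, FDPS, MVD and MVK in nuclear and IDI1 in cytoplasmic RNA, with nuclear MVK at 0.17 (adjusted p = 0.43) without control replicate 4. HMGCS1 was at 101, 108, 71.9 and 77.2 normalized CPM in the total RNA of controls 1 to 4, 149 and 151 in IGF2BP1-KO, 63.3 and 64.0 in IGF2BP2-KO and 72.4 and 74.9 in IGF2BP3-KO. Nuclear HMGCS1 was at 96.2, 92.9, 66.7 and 69.7 in the controls, 152 and 167 in IGF2BP1-KO, 61.6 and 65.8 in IGF2BP2-KO and 69.0 and 73.0 in IGF2BP3-KO. Cytoplasmic HMGCS1 was at 83.2, 80.5, 64.8 and 61.2 in the controls, 140.0 and 138 in IGF2BP1-KO, 50.4 and 49.2 in IGF2BP2-KO and 56.6, 56.5, 103 and 108 in IGF2BP3-KO (batch 5 last). The IGF2BP1 libraries were above every control in each kind, and the IGF2BP2 libraries below every control in each. HMGCS1 rose in the IGF2BP1 knockout by log2 changes of 0.52 ± 0.088, 0.75 ± 0.091 and 0.76 ± 0.046 (SE) in total, nuclear and cytoplasmic RNA (edgeR, largest adjusted p = 0.0011); triples of log2 changes below keep this order. It was called lower in the IGF2BP2 knockout in cytoplasmic RNA alone, at -0.34 ± 0.053 (adjusted p = 1.2e-06), a call lost without the batch term (-0.54, adjusted p = 0.082). Its cytoplasmic change in the IGF2BP3 knockout, -0.15 ± 0.052 (adjusted p = 0.01), was lost without control replicate 3 (-0.10) or IGF2BP3 replicate 1 (-0.12) and turned positive with upper quartile normalization (0.0155) and without the batch term (0.16).

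PMVK stood apart from the other early enzymes. Total RNA of the controls had 30.3, 30.5, 25.0 and 27.5 normalized CPM of PMVK, 30.3 and 31.1 in IGF2BP1-KO, 35.8 and 34.7 in IGF2BP2-KO and 37.5 and 38.6 in IGF2BP3-KO. In the nucleus the controls had 27.5, 23.0, 25.3 and 27.2 of PMVK, 31.2 and 30.4 in IGF2BP1-KO, 41.8 and 45.6 in IGF2BP2-KO and 45.9 and 43.1 in IGF2BP3-KO. In the cytoplasm the controls had 35.7, 33.3, 35.2 and 39.4 of PMVK, 33.5 and 32.2 in IGF2BP1-KO, 47.2 and 45.4 in IGF2BP2-KO and 52.2, 50.1, 48.1 and 50.2 in IGF2BP3-KO (batch 5 last). All IGF2BP2 and IGF2BP3 libraries were above every control in each kind. Its log2 change was 0.43 ± 0.10, 0.74 ± 0.11 and 0.31 ± 0.064 in the IGF2BP2 knockout (largest adjusted p = 0.0047 by edgeR) and 0.54 ± 0.10, 0.76 ± 0.10 and 0.45 ± 0.063 in IGF2BP3-KO cells (largest adjusted p = 0.0009). The total RNA call in the IGF2BP2 knockout was lost without control replicate 3 (0.34, adjusted p = 0.12) or IGF2BP2 replicate 1 (0.36, adjusted p = 0.13). Of the other early enzymes, IDI1 moved in opposite directions, by 0.66 ± 0.10, 1.09 ± 0.094 and 0.83 ± 0.044 in IGF2BP1-KO and -0.73 ± 0.10, -0.52 ± 0.10 and -0.87 ± 0.051 in IGF2BP2-KO. ACAT2 changed by -1.17 ± 0.11, -0.60 ± 0.10 and -1.02 ± 0.047 in the IGF2BP2 knockout. MVD changed by 0.99 ± 0.10, 0.79 ± 0.10 and 0.73 ± 0.061 in the IGF2BP1 knockout.

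Squalene synthase FDFT1, squalene epoxidase SQLE and lanosterol synthase LSS carry the pathway from farnesyl diphosphate to the first sterol. All 3 fell in every RNA kind of the IGF2BP2 knockout (all genes: 23.7%, 24.9% and 33.2% lower in total, nuclear and cytoplasmic RNA). FDFT1 and LSS rose in every kind of the IGF2BP1 knockout (all genes: 10.7%, 12.7% and 22.5% higher). In total RNA, SQLE measured 345, 339.6, 208 and 211 normalized CPM in the controls, 266 and 259 in IGF2BP1-KO, 76.3 and 74.0 in IGF2BP2-KO and 90.9 and 92.0 in IGF2BP3-KO. The nuclear values of SQLE were 259, 254, 190.3 and 196 in the controls, 259 and 281 in IGF2BP1-KO, 76.9 and 76.8 in IGF2BP2-KO and 92.2 and 95.2 in IGF2BP3-KO. The cytoplasmic values of SQLE were 252, 253, 205 and 199.6 in the controls, 240.1 and 249.9 in IGF2BP1-KO, 65.8 and 65.2 in IGF2BP2-KO and 86.7, 83.1, 156 and 164 in IGF2BP3-KO (batch 5 last). SQLE was below every control in all libraries of the IGF2BP2 and IGF2BP3 knockouts, and the IGF2BP1 values lay within the control range or just above it. The log2 change was -1.48 ± 0.085, -1.33 ± 0.10 and -1.62 ± 0.044 in the IGF2BP2 knockout (edgeR, largest adjusted p = 8.1e-08) and -1.2 ± 0.084, -1.04 ± 0.10 and -1.25 ± 0.042 in IGF2BP3-KO cells (largest adjusted p = 3.1e-07). In the IGF2BP1 knockout SQLE was called in total RNA alone, at -0.38 ± 0.082 (adjusted p = 0.0049), and at -0.37 without the library shared with nuclear RNA. Its libraries were below the controls of batches 1 and 2 but not those of batches 3 and 4, and the call was lost without the batch term (-0.072, adjusted p = 0.82). LSS parted the IGF2BP2 knockout from the others, with log2 changes of 0.42 ± 0.089, 0.42 ± 0.10 and 0.54 ± 0.047 in IGF2BP1-KO and 0.53 ± 0.09, 0.34 ± 0.10 and 0.50 ± 0.049 in IGF2BP3-KO. The IGF2BP2 knockout had -0.71 ± 0.091, -0.98 ± 0.10 and -0.77 ± 0.054 for LSS. Its nuclear call in the IGF2BP1 knockout was lost without the library shared with total RNA or control replicate 1 (0.27, adjusted p = 0.081). The nuclear call in the IGF2BP3 knockout was lost without either library of it or control replicate 4 (0.22, adjusted p = 0.28).

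The steps from lanosterol to cholesterol held 8 members. CYP51A1 removes a methyl group from lanosterol, TM7SF2 reduces the double bond that this leaves, MSMO1, NSDHL and HSD17B7 remove the remaining methyl groups, EBP shifts a double bond, SC5D adds one and DHCR7 makes cholesterol from its immediate precursor. In the IGF2BP1 knockout 7, 8 and 7 of the 8 rose in total, nuclear and cytoplasmic RNA and none fell. Of all genes 10.7%, 12.7% and 22.5% were called higher there. In the IGF2BP2 knockout 4, 4 and 5 fell (all genes: 23.7%, 24.9% and 33.2% lower), and TM7SF2 and HSD17B7 rose in cytoplasmic RNA. Both of the latter calls were lost without control replicate 3, at 0.26 and 0.11 (adjusted p = 0.054 and 0.46). Leaving out 1 library also ended calls of EBP and NSDHL in total and nuclear RNA and of HSD17B7 and NSDHL in cytoplasmic RNA of the IGF2BP1 knockout. In the IGF2BP3 knockout 2, 4 and 4 rose and 2, 1 and 4 fell. Of all genes 23.5%, 25.1% and 31.5% were called higher there and 23.4%, 25.3% and 33.2% lower. TM7SF2 and SC5D rose and CYP51A1 fell in every kind of this knockout. Here leaving out 1 library ended calls of DHCR7 in total, CYP51A1 and HSD17B7 in nuclear and EBP, HSD17B7 and MSMO1 in cytoplasmic RNA. The 4 controls gave 11.7, 13.5, 15.2 and 13.3 normalized CPM of TM7SF2 in total RNA, 40.4 and 49.5 in IGF2BP1-KO, 15.4 and 14.5 in IGF2BP2-KO and 52.2 and 50.0 in IGF2BP3-KO. For TM7SF2 the nuclear controls gave 19.8, 18.4, 17.4 and 17.2, 49.6 and 38.7 in IGF2BP1-KO, 19.2 and 20.8 in IGF2BP2-KO and 79.4 and 74.3 in IGF2BP3-KO. For TM7SF2 the cytoplasmic controls gave 13.7, 14.5, 13.0 and 14.0, 29.4 and 30.8 in IGF2BP1-KO, 18.1 and 16.3 in IGF2BP2-KO and 63.0, 60.0, 41.0 and 45.1 in IGF2BP3-KO (batch 5 last). TM7SF2 was above every control in all libraries of the IGF2BP1 and IGF2BP3 knockouts, while the IGF2BP2 libraries overlapped the controls in total and nuclear RNA and were above them in cytoplasmic RNA. Its log2 change was 1.83 ± 0.11, 1.2 ± 0.11 and 1.09 ± 0.083 in the IGF2BP1 knockout (edgeR, largest adjusted p = 3.2e-07) and 1.84 ± 0.11, 2.15 ± 0.11 and 2.18 ± 0.077 in IGF2BP3-KO cells (largest adjusted p = 9.2e-08). Within the cytoplasmic IGF2BP3 knockout the batch 5 libraries were lower than those of batches 3 and 4 and still above every control.

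SC5D and DHCR7, the last enzymes of the pathway in the list, parted in the IGF2BP3 knockout. SC5D was at 72.9, 78.4, 64.7 and 67.6 normalized CPM in the total RNA of controls 1 to 4, 98.9 and 109 in IGF2BP1-KO, 68.0 and 65.4 in IGF2BP2-KO and 162 and 150.1 in IGF2BP3-KO. Nuclear SC5D was at 67.1, 64.7, 62.0 and 62.4 in the controls, 109 and 121 in IGF2BP1-KO, 65.1 and 68.9 in IGF2BP2-KO and 149 and 162 in IGF2BP3-KO. Cytoplasmic SC5D was at 59.8, 63.1, 57.4 and 56.3 in the controls, 96.4 and 98.8 in IGF2BP1-KO, 52.7 and 51.8 in IGF2BP2-KO and 139.5, 134, 175 and 179 in IGF2BP3-KO (batch 5 last). The IGF2BP3 libraries of SC5D were more than 130 normalized CPM in every kind, and no control reached 80. SC5D rose by log2 changes of 1.24 ± 0.092, 1.32 ± 0.094 and 1.27 ± 0.047 in that knockout (edgeR, largest adjusted p = 4.9e-07) and of 0.45 ± 0.091, 0.80 ± 0.094 and 0.67 ± 0.048 in the IGF2BP1 knockout (largest adjusted p = 0.0032). Its small cytoplasmic decrease in the IGF2BP2 knockout, -0.12 ± 0.052 (adjusted p = 0.041), was lost in 14 of the alternatives that left out libraries or changed the fit and turned to 0.027 with upper quartile normalization. Total RNA of the controls had 159, 150.2, 119 and 119.7 normalized CPM of DHCR7, 212 and 213 in IGF2BP1-KO, 48.7 and 48.9 in IGF2BP2-KO and 95.9 and 93.3 in IGF2BP3-KO. In the nucleus the controls had 169.8, 149, 115 and 112 of DHCR7, 213 and 224 in IGF2BP1-KO, 53.3 and 56.7 in IGF2BP2-KO and 116 and 114 in IGF2BP3-KO. In the cytoplasm the controls had 136, 143, 117 and 119 of DHCR7, 162 and 182 in IGF2BP1-KO, 49.5 and 46.6 in IGF2BP2-KO and 84.7, 86.8, 116 and 117 in IGF2BP3-KO (batch 5 last). The IGF2BP2 libraries of DHCR7 were below all others in each kind, and those of the IGF2BP1 knockout were above every control. DHCR7 changed by -1.29 ± 0.089, -1.04 ± 0.10 and -1.30 ± 0.049 in the IGF2BP2 knockout (largest adjusted p = 3.4e-07) and by 0.46 ± 0.085, 0.46 ± 0.094 and 0.30 ± 0.043 in the IGF2BP1 knockout (largest adjusted p = 0.002). In the IGF2BP3 knockout it was called lower in total and cytoplasmic RNA, at -0.34 ± 0.087 and -0.46 ± 0.045. The total RNA call was lost without any single library of the IGF2BP3 knockout or of the controls of batches 3 and 4.

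CYP51A1 and MSMO1 fell in every kind of the IGF2BP2 knockout; MSMO1 rose in every kind of the IGF2BP1 knockout, and CYP51A1 in its nuclear and cytoplasmic RNA. In total RNA, MSMO1 measured 43.7, 49.2, 30.3 and 34.9 normalized CPM in the controls, 90.8 and 87.0 in IGF2BP1-KO, 20.8 and 20.3 in IGF2BP2-KO and 28.4 and 27.7 in IGF2BP3-KO. The nuclear values of MSMO1 were 43.2, 39.9, 30.3 and 31.8 in the controls, 87.2 and 93.9 in IGF2BP1-KO, 23.4 and 24.5 in IGF2BP2-KO and 32.5 and 32.0 in IGF2BP3-KO. The cytoplasmic values of MSMO1 were 39.0, 39.5, 32.4 and 34.3 in the controls, 74.7 and 78.8 in IGF2BP1-KO, 24.5 and 22.6 in IGF2BP2-KO and 29.4, 28.3, 50.6 and 48.1 in IGF2BP3-KO (batch 5 last). In all 3 kinds the IGF2BP1 libraries of MSMO1 were above 70 normalized CPM, and no other library reached 51. Its log2 change was 0.94 ± 0.11, 1.12 ± 0.10 and 0.97 ± 0.059 in the IGF2BP1 knockout (edgeR, largest adjusted p = 5.4e-05) and -0.66 ± 0.11, -0.37 ± 0.11 and -0.50 ± 0.071 in IGF2BP2-KO cells (largest adjusted p = 0.0031). The latter's nuclear call was lost without control replicate 4 (-0.35, adjusted p = 0.077) or IGF2BP2 replicate 1 (-0.34, adjusted p = 0.054). In the cytoplasmic IGF2BP3 knockout MSMO1 was at -0.21 ± 0.068 (adjusted p = 0.0072), a call lost without control replicate 4 (-0.12) or IGF2BP3 replicate 2 (-0.19), and the sign turned without the batch term (0.10). The 4 controls gave 14.0, 13.8, 11.8 and 10.4 normalized CPM of CYP51A1 in total RNA, 16.9 and 14.6 in IGF2BP1-KO, 6.53 and 6.35 in IGF2BP2-KO and 5.27 and 6.27 in IGF2BP3-KO. For CYP51A1 the nuclear controls gave 8.0, 7.0, 4.22 and 5.85, 14.6 and 15.2 in IGF2BP1-KO, 2.07 and 2.06 in IGF2BP2-KO and 2.84 and 2.20 in IGF2BP3-KO. For CYP51A1 the cytoplasmic controls gave 10.4, 10.1, 6.49 and 7.01, 13.9 and 16.3 in IGF2BP1-KO, 3.00 and 2.41 in IGF2BP2-KO and 2.82, 3.09, 3.63 and 4.70 in IGF2BP3-KO (batch 5 last). CYP51A1 is a low RNA here, and the IGF2BP2 and IGF2BP3 libraries were below every control in each kind. It changed by 1.0 ± 0.16 and 0.56 ± 0.11 in nuclear and cytoplasmic RNA of the IGF2BP1 knockout. The IGF2BP2 knockout had -0.79 ± 0.15, -1.28 ± 0.23 and -1.31 ± 0.17 (largest adjusted p = 0.00078), and CYP51A1 changed by -0.95 ± 0.15, -0.98 ± 0.22 and -1.19 ± 0.16 in the IGF2BP3 knockout (largest adjusted p = 0.00019). The nuclear call in the IGF2BP3 knockout was lost without control replicate 4 (-0.65, adjusted p = 0.079) or IGF2BP3 replicate 2 (-0.66, adjusted p = 0.065). NSDHL had changes of -0.99 ± 0.11, -0.76 ± 0.11 and -1.21 ± 0.059 in the IGF2BP2 knockout, larger in size than its 0.38 ± 0.10, 0.32 ± 0.10 and 0.21 ± 0.05 in the IGF2BP1 knockout. The NSDHL call in the IGF2BP1 knockout was lost in each kind on leaving out 1 library, with nuclear NSDHL at 0.085 (adjusted p = 0.67) without control replicate 2 and 0.54 without the shared library. HSD17B7 and EBP had no call in total or nuclear RNA of the IGF2BP2 knockout, and nuclear EBP rose in the IGF2BP3 knockout, at 0.77 ± 0.10 (adjusted p = 8.3e-09).

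Among the regulators, INSIG1 followed the sterol enzymes and SREBF1 did not. INSIG1 was at 195, 193, 105 and 112 normalized CPM in the total RNA of controls 1 to 4, 348 and 257 in IGF2BP1-KO, 55.7 and 54.3 in IGF2BP2-KO and 115 and 105 in IGF2BP3-KO. Nuclear INSIG1 was at 115, 110.4, 91.6 and 97.9 in the controls, 257 and 267 in IGF2BP1-KO, 52.3 and 55.2 in IGF2BP2-KO and 108 and 106 in IGF2BP3-KO. Cytoplasmic INSIG1 was at 147, 157, 119.9 and 116 in the controls, 304 and 303 in IGF2BP1-KO, 57.1 and 58.0 in IGF2BP2-KO and 118, 113, 185 and 177 in IGF2BP3-KO (batch 5 last). INSIG1, the anchor that keeps SCAP in the endoplasmic reticulum and itself a target of SREBP, was above every control in the IGF2BP1 knockout and below every control in the IGF2BP2 knockout. Its log2 change was 0.63 ± 0.11, 1.22 ± 0.093 and 1.0 ± 0.041 in the former (edgeR, largest adjusted p = 0.0011) and -0.98 ± 0.11, -0.82 ± 0.10 and -1.04 ± 0.048 in the latter (largest adjusted p = 1.7e-05). The total RNA value of the IGF2BP1 knockout rested in part on 1 pair of libraries: it was 0.84 without replicate 2, the library shared with nuclear RNA, 0.40 without replicate 1 and 0.41 without control replicate 1. In the IGF2BP3 knockout INSIG1 was not called in any kind, at 0.02 ± 0.11, 0.18 ± 0.095 and -0.03 ± 0.044; with upper quartile normalization the cytoplasmic value was 0.14 (adjusted p = 0.0071). Total RNA of the controls had 87.3, 88.4, 104 and 98.2 normalized CPM of SREBF1, 41.5 and 46.4 in IGF2BP1-KO, 92.4 and 94.5 in IGF2BP2-KO and 83.2 and 79.0 in IGF2BP3-KO. In the nucleus the controls had 113, 111, 113 and 104 of SREBF1, 46.5 and 39.9 in IGF2BP1-KO, 101 and 113 in IGF2BP2-KO and 91.2 and 94.7 in IGF2BP3-KO. In the cytoplasm the controls had 64.6, 74.4, 71.1 and 74.1 of SREBF1, 25.9 and 29 in IGF2BP1-KO, 77.7 and 73.4 in IGF2BP2-KO and 55.5, 57.4, 36.4 and 40.6 in IGF2BP3-KO (batch 5 last). SREBF1, which encodes SREBP1, was below every control in the IGF2BP1 and IGF2BP3 knockouts in each kind, and overlapped the controls in the IGF2BP2 knockout. It changed by -1.0 ± 0.095, -1.38 ± 0.10 and -1.34 ± 0.063 in the IGF2BP1 knockout (largest adjusted p = 1.5e-05), while the IGF2BP2 values were -0.11 ± 0.092, -0.022 ± 0.094 and 0.058 ± 0.054 with no call. The IGF2BP3 values were -0.32 ± 0.092, -0.23 ± 0.094 and -0.36 ± 0.055, called in each kind. The total and nuclear calls were each lost without any single library of that knockout or of the controls of batches 3 and 4. Nuclear SREBF1 was at -0.11 (adjusted p = 0.6) without control replicate 3, and its call was also lost without IGF2BP2 replicate 1 (-0.22).

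The other regulators and carriers were SREBF2, SCAP and STARD4. In total RNA, SREBF2 measured 280.3, 279.8, 209 and 201 normalized CPM in the controls, 298 and 238 in IGF2BP1-KO, 211 and 219.6 in IGF2BP2-KO and 179 and 172 in IGF2BP3-KO. The nuclear values of SREBF2 were 157, 145, 168 and 164 in the controls, 238 and 237 in IGF2BP1-KO, 182 and 205 in IGF2BP2-KO and 154 and 159 in IGF2BP3-KO. The cytoplasmic values of SREBF2 were 153, 157, 167 and 175 in the controls, 221 and 243 in IGF2BP1-KO, 170.1 and 161 in IGF2BP2-KO and 134, 136, 122 and 127 in IGF2BP3-KO (batch 5 last). SREBF2, which encodes SREBP2, was above every control in the IGF2BP1 knockout in nuclear and cytoplasmic RNA. In total RNA IGF2BP1 replicate 1 was above every control, and replicate 2, the library shared with nuclear RNA, was within their range. The log2 changes were -0.074 ± 0.094, 0.66 ± 0.10 and 0.58 ± 0.042 in total, nuclear and cytoplasmic RNA of that knockout, with adjusted p = 0.61, 7.1e-07 and 2.2e-13 by edgeR. In total RNA the value was 0.093 without the library shared with nuclear RNA. The IGF2BP2 values, 0.072 ± 0.095, 0.22 ± 0.10 and -0.044 ± 0.043, were not called, and the cytoplasmic one was 0.10 (adjusted p = 0.03) with upper quartile normalization. The IGF2BP3 knockout had -0.34 ± 0.043 in cytoplasmic RNA (adjusted p = 2.3e-08) and no call in the other kinds. The 4 controls gave 256, 248, 211 and 211 normalized CPM of SCAP in total RNA, 261 and 268 in IGF2BP1-KO, 161 and 172 in IGF2BP2-KO and 201 and 190.3 in IGF2BP3-KO. For SCAP the nuclear controls gave 202, 194, 201 and 200.1, 269 and 239 in IGF2BP1-KO, 169 and 181 in IGF2BP2-KO and 197 and 206 in IGF2BP3-KO. For SCAP the cytoplasmic controls gave 161, 178, 158 and 175, 191 and 197 in IGF2BP1-KO, 127 and 119 in IGF2BP2-KO and 132, 131, 136 and 139.9 in IGF2BP3-KO (batch 5 last). SCAP was above every control in the IGF2BP1 and below every control in the IGF2BP2 knockout in each kind, by small steps. SCAP was called higher in nuclear and cytoplasmic RNA of the IGF2BP1 knockout, at 0.36 ± 0.10 and 0.19 ± 0.045, and lower in total and cytoplasmic RNA of the IGF2BP2 knockout, at -0.34 ± 0.086 and -0.43 ± 0.047. The cytoplasmic IGF2BP1 call was lost without control replicate 1 or IGF2BP1 replicate 1 (0.15 and 0.15), and the total IGF2BP2 call without any single library of that knockout or of the controls of batches 3 and 4 (adjusted p up to 0.16). STARD4, which carries sterol between membranes, rose in the IGF2BP3 knockout by 0.59 ± 0.14, 0.53 ± 0.11 and 0.72 ± 0.074 and in nuclear and cytoplasmic RNA of the IGF2BP1 knockout by 0.34 ± 0.11 and 0.68 ± 0.075. The total call in the IGF2BP3 knockout was lost without control replicate 3 (0.52, adjusted p = 0.082) or IGF2BP3 replicate 1. The nuclear IGF2BP1 call of STARD4 was lost without the shared library (0.21) or control replicate 1 (0.21).

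**Figure D3:**
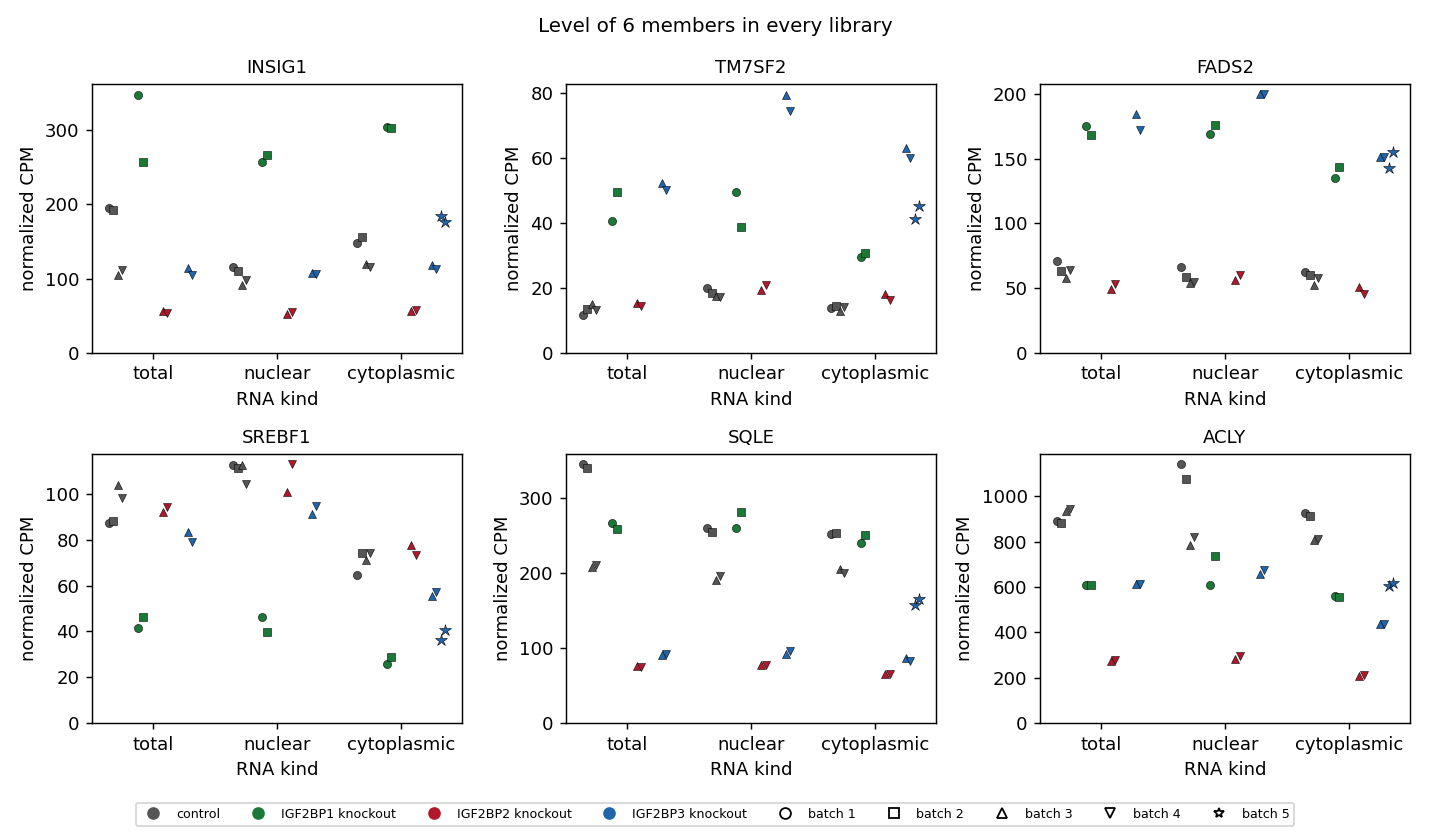
Normalized CPM of INSIG1, TM7SF2, FADS2, SREBF1, SQLE and ACLY in every library, by RNA kind (horizontal axis), genotype (colour) and batch (symbol); each point is 1 library. INSIG1 is highest in the IGF2BP1 and lowest in the IGF2BP2 knockout, and the batch 5 stars of the IGF2BP3 knockout are apart from its batch 3 and 4 symbols for INSIG1, TM7SF2, SREBF1, SQLE and ACLY.

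The 4 enzymes that build and lengthen saturated fatty acids were mostly lower. ACLY supplies acetyl-CoA, ACACA makes malonyl-CoA, FASN assembles palmitate and ELOVL6 lengthens it. In the IGF2BP2 and IGF2BP3 knockouts all 4 were called lower in each RNA kind. In the IGF2BP1 knockout 3, 4 and 4 were called lower in total, nuclear and cytoplasmic RNA. Of all genes 23.7%, 24.9% and 33.2% were called lower in these kinds of the IGF2BP2 knockout. These shares were 23.4%, 25.3% and 33.2% in the IGF2BP3 and 13.5%, 13% and 21.9% in the IGF2BP1 knockout. ACLY was at 891, 883, 936 and 942 normalized CPM in the total RNA of controls 1 to 4, 607 and 609 in IGF2BP1-KO, 275 and 278 in IGF2BP2-KO and 614 and 615 in IGF2BP3-KO. Nuclear ACLY was at 1140.4, 1076, 784 and 819 in the controls, 610.4 and 735 in IGF2BP1-KO, 281 and 295 in IGF2BP2-KO and 657 and 675 in IGF2BP3-KO. Cytoplasmic ACLY was at 926, 912, 805 and 809.5 in the controls, 559 and 557 in IGF2BP1-KO, 206 and 213 in IGF2BP2-KO and 435, 436, 603 and 616 in IGF2BP3-KO (batch 5 last). ACLY was below every control in every knockout library of all kinds, and lowest in the IGF2BP2 knockout. Its log2 change was -1.76 ± 0.079, -1.48 ± 0.11 and -1.95 ± 0.036 in that knockout (edgeR, largest adjusted p = 1e-08). It was -0.54 ± 0.076, -0.73 ± 0.11 and -0.72 ± 0.034 in the IGF2BP1 knockout (largest adjusted p = 0.00029). The IGF2BP3 knockout had -0.61 ± 0.076, -0.27 ± 0.11 and -0.89 ± 0.034 (largest adjusted p = 0.043). The nuclear value in the last was lost under 10 alternatives, among them those without control replicate 3 or 4 or either IGF2BP3 library (adjusted p of 0.17 to 0.27). Total RNA of the controls had 1430.3, 1419, 1250.4 and 1165 normalized CPM of FASN, 1021 and 802 in IGF2BP1-KO, 594 and 647 in IGF2BP2-KO and 729 and 705 in IGF2BP3-KO. In the nucleus the controls had 1259, 1104, 832 and 773 of FASN, 804 and 795 in IGF2BP1-KO, 420.5 and 484 in IGF2BP2-KO and 489 and 510.1 in IGF2BP3-KO. In the cytoplasm the controls had 978, 996, 603 and 673 of FASN, 686 and 682 in IGF2BP1-KO, 287 and 268 in IGF2BP2-KO and 307, 317, 496 and 524 in IGF2BP3-KO (batch 5 last). FASN was below the controls of its own batches in every knockout library of batches 1 to 4. It changed by -0.65 ± 0.094, -0.56 ± 0.11 and -0.53 ± 0.041 in IGF2BP1-KO, -0.96 ± 0.095, -0.83 ± 0.11 and -1.2 ± 0.043 in IGF2BP2-KO and -0.75 ± 0.094, -0.69 ± 0.11 and -1.03 ± 0.042 in IGF2BP3-KO. The largest adjusted p were 0.00034, 5.4e-06 and 3.4e-05. Without the batch term the nuclear and cytoplasmic IGF2BP1 calls were lost, at -0.31 (adjusted p = 0.16) and -0.25 (adjusted p = 0.5). ACACA changed by -0.80 ± 0.091, -0.41 ± 0.093 and -0.28 ± 0.042 in IGF2BP1-KO, -0.81 ± 0.091, -0.81 ± 0.10 and -0.97 ± 0.045 in IGF2BP2-KO and -0.55 ± 0.091, -0.59 ± 0.10 and -0.70 ± 0.044 in IGF2BP3-KO. Without the batch term its nuclear and cytoplasmic IGF2BP1 calls were lost, at -0.21 and -0.14 (adjusted p = 0.26 and 0.46), and in these kinds its IGF2BP1 libraries overlapped the controls. ELOVL6 had smaller values, -0.11 ± 0.11, -0.30 ± 0.10 and -0.20 ± 0.052 in IGF2BP1-KO, -0.54 ± 0.11, -0.62 ± 0.10 and -0.46 ± 0.056 in IGF2BP2-KO and -0.36 ± 0.11, -0.40 ± 0.10 and -0.41 ± 0.055 in IGF2BP3-KO. Its total value in the IGF2BP1 knockout, not called, was 0.10 without the shared library. The nuclear IGF2BP1 call was lost without that library or control replicate 1, and the cytoplasmic one without control replicate 2 or IGF2BP1 replicate 2. Without the batch term these were -0.19 and -0.065, with no call. ELOVL6 calls in total RNA were also lost without IGF2BP2 replicate 2 for that knockout and without any single library of the IGF2BP3 knockout or of controls 3 and 4 for the latter. The nuclear IGF2BP3 call was lost without control replicate 4 (-0.30).

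The desaturases divided. SCD puts the first double bond into stearate, while FADS1 and FADS2 act on polyunsaturated fatty acids. In total RNA, SCD measured 1251, 1268, 995 and 997 normalized CPM in the controls, 1102 and 899 in IGF2BP1-KO, 539.9 and 559.6 in IGF2BP2-KO and 609 and 639 in IGF2BP3-KO. The nuclear values of SCD were 1079, 959, 745 and 783 in the controls, 901 and 1086 in IGF2BP1-KO, 464 and 456 in IGF2BP2-KO and 510.5 and 551 in IGF2BP3-KO. The cytoplasmic values of SCD were 1049, 1074, 947 and 956 in the controls, 961 and 995 in IGF2BP1-KO, 473 and 462 in IGF2BP2-KO and 546, 544, 722 and 747 in IGF2BP3-KO (batch 5 last). SCD was below every control in all libraries of the IGF2BP2 and IGF2BP3 knockouts. It changed by -0.86 ± 0.088, -0.73 ± 0.12 and -1.02 ± 0.035 in the IGF2BP2 knockout (edgeR, largest adjusted p = 7.3e-06) and by -0.68 ± 0.088, -0.53 ± 0.12 and -0.80 ± 0.035 in the IGF2BP3 knockout (largest adjusted p = 0.00017). The IGF2BP1 values were smaller, -0.34 ± 0.087, -0.041 ± 0.11 and -0.12 ± 0.034, and no call was made in nuclear RNA. The cytoplasmic call was lost without either library of that knockout, and the total value was -0.18 (adjusted p = 0.11) without the library shared with nuclear RNA and -0.18 without control replicate 2. The 4 controls gave 70.9, 63.0, 58.1 and 63.7 normalized CPM of FADS2 in total RNA, 175 and 168 in IGF2BP1-KO, 49.4 and 53.3 in IGF2BP2-KO and 184 and 172 in IGF2BP3-KO. For FADS2 the nuclear controls gave 66.2, 58.7, 53.9 and 54.9, 169 and 176 in IGF2BP1-KO, 56.2 and 60.4 in IGF2BP2-KO and 200.1 and 199 in IGF2BP3-KO. For FADS2 the cytoplasmic controls gave 62.2, 60.4, 52.8 and 57.6, 135 and 144 in IGF2BP1-KO, 50.7 and 45.7 in IGF2BP2-KO and 151, 151, 143 and 155 in IGF2BP3-KO (batch 5 last). FADS2 was above every control in all libraries of the IGF2BP1 and IGF2BP3 knockouts, while the IGF2BP2 libraries were below every control in total and cytoplasmic RNA and overlapped them in nuclear RNA. Its log2 change was 1.36 ± 0.10, 1.47 ± 0.10 and 1.18 ± 0.054 in the IGF2BP1 knockout (largest adjusted p = 1.8e-06) and 1.55 ± 0.10, 1.88 ± 0.10 and 1.45 ± 0.055 in IGF2BP3-KO cells (largest adjusted p = 1.4e-07). The cytoplasmic decrease in the IGF2BP2 knockout, -0.20 ± 0.062, was lost without control replicate 4 (-0.10) or IGF2BP2 replicate 2 (-0.11) and was -0.30 without IGF2BP2 replicate 1. FADS1, whose exons overlap those of FADS2 on the other strand, rose in the IGF2BP3 knockout by 0.55 ± 0.10, 0.65 ± 0.094 and 0.41 ± 0.043 and had no call in the IGF2BP2 knockout.

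The knockouts were compared with each other in cytoplasmic RNA, where the spread between libraries was smallest, with a biological coefficient of variation of 2.89% against 7.87% in total and 6.88% in nuclear RNA. Between the IGF2BP2 and IGF2BP1 knockouts, which shared no batch and were set against each other through the controls, 26 of 30 members were lower and 2 higher in the IGF2BP2 knockout (27.5% and 20.9% of all genes), with a median of -0.92. INSIG1 differed most, by -2.03 ± 0.063 (edgeR, adjusted p = 5.1e-23), followed by CYP51A1, IDI1 and DHCR7 at -1.87 ± 0.20, -1.70 ± 0.067 and -1.60 ± 0.065. SREBF1, at 1.40 ± 0.083, and PMVK, at 0.38 ± 0.094, were the 2 that were higher. The IGF2BP3 knockout had 19 members lower and 7 higher than the IGF2BP1 knockout (29.1% and 22.2% of all genes). CYP51A1 and SQLE were lowest, at -1.75 ± 0.20 and -1.21 ± 0.057, and TM7SF2 and SREBF1 highest, at 1.09 ± 0.12 and 0.98 ± 0.084. With upper quartile normalization the calls over all genes went from 3806 higher and 5016 lower to 5301 higher and 3584 lower for the first of these contrasts, and from 4045 higher and 5291 lower to 5675 higher and 3698 lower for the second. The members went to 24 lower and 2 higher, and to 17 and 7.

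Against the IGF2BP2 knockout, with which it shared batches 3 and 4, the IGF2BP3 knockout had 22 members higher and 2 lower (31.3% and 31.5% of all genes), with a median of 0.33. TM7SF2, FADS2 and SC5D differed most, by 1.84 ± 0.067, 1.65 ± 0.052 and 1.39 ± 0.044 (edgeR, adjusted p = 8.3e-22, 2e-23 and 2.6e-23). LSS differed by 1.26 ± 0.049, ACLY by 1.06 ± 0.036 and INSIG1 by 1.01 ± 0.046. The 2 lower were SREBF1, at -0.42 ± 0.052, and SREBF2, at -0.30 ± 0.042. FDPS, MVD, CYP51A1 and ELOVL6 were among the 6 members with no call, at 0.029 ± 0.043, -0.10 ± 0.066, 0.12 ± 0.18 and 0.05 ± 0.054; a missing call does not show equal levels. The contrast used batches 3 and 4, since the batch 5 libraries had no partner.

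**Figure D4:**
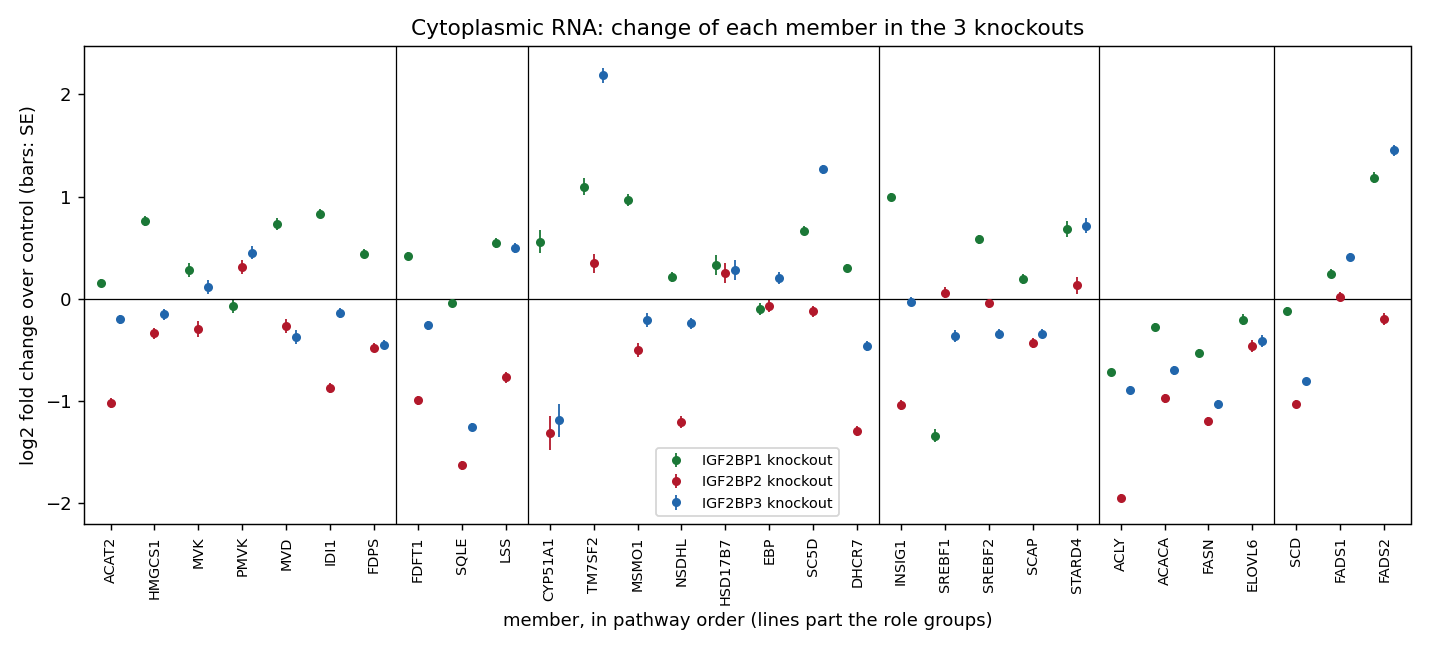
Log2 fold change over control in cytoplasmic RNA for each of the 30 members in pathway order, with the IGF2BP1, IGF2BP2 and IGF2BP3 knockouts side by side; bars are standard errors. From ACAT2 to DHCR7 the IGF2BP1 points are mostly above and the IGF2BP2 points mostly below 0, and all 3 knockouts are below 0 for ACLY, ACACA, FASN, ELOVL6 and SCD.

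The nuclear to cytoplasmic balance was compared next. In the controls 7 members were relatively nuclear and 9 relatively cytoplasmic (32.6% and 33.3% of all genes), with LSS, SREBF1 and TM7SF2 the most nuclear, at log2 differences of 0.80 ± 0.064, 0.55 ± 0.063 and 0.31 ± 0.083. PMVK, CYP51A1 and FADS1 were the most cytoplasmic, at -0.56 ± 0.069, -0.53 ± 0.11 and -0.51 ± 0.062. The nuclear to cytoplasmic ratio rose in the IGF2BP1 knockout for EBP alone, by 0.45 ± 0.12 (adjusted p = 0.018), with 2.36% of all genes called higher and 1.76% lower. In IGF2BP2-KO cells 6 members rose and none fell (7.77% and 9.71% of all genes), with ACLY at 0.43 ± 0.12, NSDHL at 0.41 ± 0.13 and ACAT2 at 0.38 ± 0.12 (edgeR, adjusted p = 0.0063, 0.018 and 0.014). In IGF2BP3-KO cells 5 rose and none fell (4.07% and 6.8% of all genes), with ACLY at 0.56 ± 0.12, EBP at 0.51 ± 0.12 and DHCR7 at 0.42 ± 0.11 (adjusted p = 0.00026, 0.0016 and 0.0059). The members' median change of the log2 ratio was 0.12, 0.19 and 0.15 in the IGF2BP1, IGF2BP2 and IGF2BP3 knockouts, beside 0.011, 0.03 and -0.026 over all genes. Each of these 12 calls was lost when at least 1 nuclear and cytoplasmic pair was left out: no member was called in the IGF2BP2 or IGF2BP3 knockout without the control pair of replicate 3. Another scaling moved the calls over all genes from 1501 higher and 1875 lower to 924 higher and 2018 lower with upper quartile normalization (IGF2BP2), and from 455 higher and 339 lower to 274 higher and 481 lower with RLE normalization (IGF2BP1). The nuclear RNA markers MALAT1, NEAT1, KCNQ1OT1 and TUG1 together were at 319.9 to 358 normalized CPM in cytoplasmic RNA of the controls, 419.8 to 426 in the IGF2BP1, 847 to 872 in the IGF2BP2 and 508 to 970.5 in the IGF2BP3 knockout. In nuclear RNA they were at 543 to 728, 539.6 to 638, 804 to 921 and 1253 to 1434, and their part in the ratios was not tested.

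**Figure D5:**
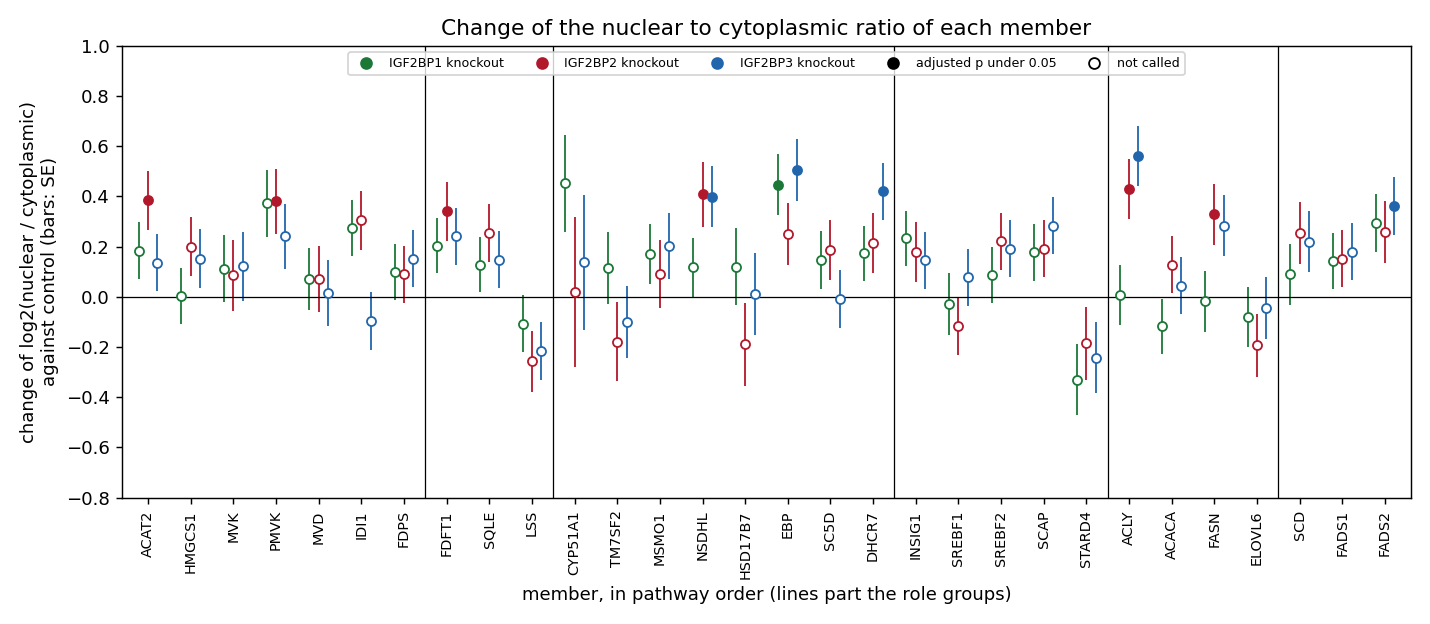
Change of the log2 nuclear to cytoplasmic ratio against control for each of the 30 members in pathway order, by knockout, with standard errors; filled points have an adjusted p under 0.05. All 12 filled points are above 0, and the largest is ACLY in the IGF2BP3 knockout at 0.56.

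Other genes of lipid metabolism, from lists of related pathways, are set beside the members. Of 23 further SREBP-linked lipid genes, 4, 3 and 7 rose and 2, 2 and 10 fell in total, nuclear and cytoplasmic RNA of the IGF2BP1 knockout. In the IGF2BP2 knockout 3, 4 and 4 rose and 17, 12 and 18 fell. In the IGF2BP3 knockout 3, 4 and 3 rose and 12, 9 and 16 fell. PCYT2, an enzyme of phosphatidylethanolamine synthesis, and ACAT1, the mitochondrial relative of ACAT2, fell in the IGF2BP2 knockout, with log2 changes of -1.40 ± 0.12, -1.22 ± 0.11 and -1.65 ± 0.075 for PCYT2 and -1.40 ± 0.12, -1.21 ± 0.10 and -1.47 ± 0.046 for ACAT1. The malic enzyme ME1, a source of NADPH, fell in the IGF2BP3 knockout, at -1.67 ± 0.11, -1.39 ± 0.12 and -1.80 ± 0.07. FADS3 rose there, at 1.25 ± 0.11, 1.26 ± 0.12 and 1.34 ± 0.10. SCD5, a relative of SCD, rose in the IGF2BP1 knockout, at 0.42 ± 0.14, 0.61 ± 0.12 and 0.38 ± 0.08.

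Of 11 genes listed for SREBP processing and sterol-regulated degradation, 0, 4 and 5 rose and 1, 1 and 2 fell in the IGF2BP1 knockout. In IGF2BP2-KO cells 4, 3 and 4 rose and 3, 3 and 6 fell, and in IGF2BP3-KO 1, 1 and 2 rose and 6, 5 and 8 fell. INSIG2, the second anchor of SCAP, rose in the IGF2BP2 knockout by 0.45 ± 0.12, 0.54 ± 0.12 and 0.36 ± 0.081, where INSIG1 had fallen, and RNF139, an endoplasmic reticulum ubiquitin ligase, fell, at -0.40 ± 0.10, -0.43 ± 0.10 and -0.61 ± 0.06. ERLIN1 was lower in the IGF2BP1 knockout, at -0.83 ± 0.095, -0.48 ± 0.10 and -0.48 ± 0.055, and in IGF2BP3-KO, at -0.57 ± 0.094, -0.42 ± 0.10 and -0.79 ± 0.054. HILPDA, a lipid droplet gene counted among the 11 that is not part of these processes, fell in the IGF2BP3 knockout, at -0.80 ± 0.11, -0.71 ± 0.12 and -0.66 ± 0.075. Among 15 LXR targets and genes of sterol efflux and storage, 3, 4 and 5 rose and 1, 1 and 2 fell in the IGF2BP1 knockout. In IGF2BP2-KO cells 4, 5 and 5 rose and 5, 6 and 6 fell, and in IGF2BP3-KO 5, 6 and 4 rose and 1, 3 and 4 fell. ABCG1, a sterol exporter, rose in every knockout and kind, by 1.57 ± 0.17, 1.41 ± 0.17 and 1.48 ± 0.17 in IGF2BP1-KO and 1.51 ± 0.18, 1.62 ± 0.20 and 1.45 ± 0.18 in IGF2BP2-KO. In the IGF2BP3 knockout ABCG1 rose by 2.51 ± 0.16, 2.73 ± 0.18 and 2.36 ± 0.16. The sterol exporter ABCA1 rose in the IGF2BP3 knockout, by 1.02 ± 0.17, 0.97 ± 0.22 and 1.02 ± 0.22. The lysosomal sterol carrier NPC2 rose in the IGF2BP1 knockout, by 0.56 ± 0.12, 0.83 ± 0.095 and 0.29 ± 0.055. NR1H3, which encodes a liver X receptor, fell in the IGF2BP2 knockout, at -1.09 ± 0.19, -1.13 ± 0.17 and -1.17 ± 0.14.

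Of 13 genes of the nonsterol isoprenoid branch, 1 in each kind rose and 0, 2 and 3 fell in the IGF2BP1 knockout. In IGF2BP2-KO cells 1, 3 and 3 rose and 4, 5 and 7 fell, and in IGF2BP3-KO 1, 1 and 2 rose and 5, 4 and 8 fell. PDSS1, which makes the side chain of ubiquinone, fell in the IGF2BP2 knockout, at -1.16 ± 0.12, -1.04 ± 0.11 and -0.95 ± 0.07, and in the IGF2BP3 knockout, at -1.15 ± 0.12, -1.08 ± 0.11 and -1.18 ± 0.07. RABGGTB, a subunit of the enzyme that prenylates Rab proteins, fell in both as well, at -0.84 ± 0.12, -0.96 ± 0.10 and -0.60 ± 0.045 and -1.14 ± 0.12, -1.35 ± 0.11 and -1.08 ± 0.046. Of 16 genes of mitochondrial fatty acid oxidation, 1, 0 and 1 rose and 2, 3 and 8 fell in the IGF2BP1 knockout. In IGF2BP2-KO cells 1, 2 and 2 rose and 13, 7 and 14 fell, and in IGF2BP3-KO 5, 7 and 5 rose and 7, 3 and 8 fell. ACADVL, which starts the oxidation of long chains, was lower in the IGF2BP1 knockout, at -0.52 ± 0.14, -0.82 ± 0.11 and -0.61 ± 0.06, and higher in the IGF2BP3 knockout, at 0.87 ± 0.13, 0.66 ± 0.11 and 1.09 ± 0.049. CPT1A, the carnitine transferase at the entry of mitochondria, was lower in the IGF2BP1 knockout, at -0.69 ± 0.14, -0.65 ± 0.10 and -0.47 ± 0.066. ECI2 and DECR1, which handle unsaturated chains, fell in the IGF2BP2 knockout, at -1.05 ± 0.093, -0.57 ± 0.10 and -0.97 ± 0.045 for ECI2 and -1.02 ± 0.12, -0.67 ± 0.13 and -0.88 ± 0.09 for DECR1. ECI2 also fell in the IGF2BP3 knockout, at -0.70 ± 0.092, -0.51 ± 0.10 and -0.73 ± 0.043. The shares of all genes called in these comparisons are those given above for the members.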

How the data were processed

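Poly(A) RNA of 32 libraries was measured as counts per gene and as FPKM, both deposited by the authors as tables of 62703 gene identifiers; per the submitters' processing notes, STAR, featureCounts, DESeq2 1.44.0 and GRCh38 were used. The strand setting of the counting is not given in the sources used here. The deposited FPKM divide by the whole gene span (the implied length is 0.936 to 0.949 of the span over 11649 genes with more than 100 counts, and a median of 6.06 times the exon length), so they served as an alternative only, and levels between genes use exon length from GENCODE 29. Identifiers without a gene symbol were kept in the fits.

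Counts were fitted with edgeR 4.0.16 in R 4.3.3 (quasi-likelihood test, TMM scaling, filterByExpr by genotype, Benjamini-Hochberg adjustment over all genes tested), separately for total, nuclear and cytoplasmic RNA, with genotype and batch as terms. Batch is the block that pairs libraries: the labels name it, and each of batches 1 to 4 holds 1 control library per RNA kind. The nuclear to cytoplasmic ratio was tested as an interaction within batches 1 to 4, with a batch by compartment term. Standard errors follow from the F statistic. Normalized CPM are CPM of the TMM-scaled library size, which was 0.922 to 1.12 times the total count. The fitting steps were tested on simulated data.

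The members and lists were chosen with earlier results of these data known. Values in every library are given for 4 regulators, for HMGCS1, SQLE, FASN and SCD, and per knockout for up to 3 members in each direction with the largest mean change among those called alike in the 3 RNA kinds; of other lists, up to 2 genes per list and knockout by the same rule are named; some genes are not reported here. Alternatives were RLE and upper quartile scaling, no filter, DESeq2 1.42.0, limma 3.58.1 on log2(FPKM + 1) and log2(FPKM + 0.1), no batch term, only the batches of a knockout, no batch by compartment term, and leaving out each library; leaving out the batch 5 libraries was added after seeing the data.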

Additional observations from a re-analysis of the deposited data

Results flagged for a closer look

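HSD17B7 had 1 control library apart from the rest in cytoplasmic RNA: replicate 3 was lowest, at 11.6 normalized CPM, with a gap to the next library above the 95% limit of Dixon's test. It was the 1 such case among 120 groups of a member, RNA kind and genotype looked at where the group had 4 libraries, and chance gives about 1 in 20.

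The change over control differed between nuclear and cytoplasmic RNA, by the interaction test, for 12 pairs of a member and a knockout, all with a higher nuclear to cytoplasmic log2 ratio. In the IGF2BP1 knockout it was EBP, at 0.45. In the IGF2BP2 knockout the values were 0.43 for ACLY, 0.41 for NSDHL, 0.38 for ACAT2, 0.38 for PMVK, 0.34 for FDFT1 and 0.33 for FASN. In the IGF2BP3 knockout they were 0.56 for ACLY, 0.51 for EBP, 0.42 for DHCR7, 0.40 for NSDHL and 0.36 for FADS2. None of the 12 was called under every leave-one-out fit.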

How the results depend on the processing

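Over single members, leaving out 1 library kept the direction and the side of the threshold for 4668 values, lost 232 calls and gained 80. The counts of members called, main value first and range without each library after it, were 23 (21 to 26), 28 (22 to 28) and 27 (23 to 27) in total, nuclear and cytoplasmic RNA of the IGF2BP1 knockout, 20 (15 to 24), 17 (15 to 21) and 25 (22 to 25) of the IGF2BP2 knockout, and 20 (12 to 25), 20 (12 to 21) and 28 (24 to 28) of the IGF2BP3 knockout. The knockout contrasts ranged from 27 to 28, 23 to 26 and 22 to 25, the control fractions from 13 to 15, and the ratios from 0 to 1 (IGF2BP1), 0 to 7 (IGF2BP2) and 0 to 7 (IGF2BP3). With limma on log2(FPKM + 0.1) the nuclear counts were 18 (IGF2BP1) and 13 (IGF2BP3). The members called for the ratio in the IGF2BP1 knockout were 0 without the filter and with DESeq2 and 5 without the batch by compartment term. In the IGF2BP2 knockout they were 3 with upper quartile scaling, 1 with DESeq2 and 3 without the batch by compartment term, and in the IGF2BP3 knockout 3 with DESeq2 and 3 without that term. Upper quartile scaling turned the cytoplasmic log2 change of SC5D (0.027) and SREBF2 (0.10) in the IGF2BP2 knockout and of HMGCS1 (0.0155), INSIG1 (0.14) and IDI1 (0.029) in the IGF2BP3 knockout. The cause was not tested.

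Without the batch block that pairs the libraries, the members called for the ratio were 1 in the IGF2BP1, 1 in the IGF2BP2 and 0 in the IGF2BP3 knockout, and 8 for the control fractions. The counts without the block were 21, 23 and 20 in total, nuclear and cytoplasmic RNA of the IGF2BP1 knockout, 22, 19 and 21 of the IGF2BP2 knockout, 22, 18 and 22 of the IGF2BP3 knockout, and 28, 21 and 22 for the knockout contrasts. In cytoplasmic RNA of the IGF2BP3 knockout, where 2 of 4 libraries are from batch 5, MSMO1 (0.10), HMGCS1 (0.16), ACAT2 (0.12), NSDHL (0.025) and IDI1 (0.23) then turned positive. Without the batch 5 libraries 1 call of a single member was lost. Where leaving out a library left 1 in a group, that library was assumed to vary like the others.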
